A study of Canis lupus familiaris with 36 samples.

Results

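RNA of 207 genes accumulated with time in DMSO-treated cultures of CLBL-1, a canine cell line derived from a diffuse large B-cell lymphoma, and was lower at 72 h where ibrutinib and AS-605240 were given together. The genes were chosen by exactly these readouts. Levels were expressed as CPM, the usual unit in which the reads of a gene are scaled to the total of all genes in its library, and averaged over the replicates of a group. A gene was taken when its mean over 35 libraries was at least 2 CPM, when the log2 ratio of DMSO 72 h to DMSO 24 h was at least 1, and when the log2 ratio of the combination to DMSO at 72 h was -1 or lower. A value of 0.5 CPM was added to both means of each ratio. This selected 207 of the 10037 genes that reached 2 CPM, out of 30424 genes counted. The first ratio alone was met by 352 genes. The other 145 of these, which missed the second ratio, are called the other rising genes here and are given beside the members. The DMSO 24 h, DMSO 72 h and combination 72 h libraries chose the members. Every value that contains one of these libraries is therefore given as a description. Where edgeR calls are printed for the contrasts of the rule, nothing is read from them. DMSO 72 h also enters both ratios, with opposite sign. Tests from which something is read were restricted to comparisons among the remaining libraries, which entered the choice only through the limit of 2 CPM.

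Cells were incubated with 1 µM ibrutinib (Ibr), 5 µM AS-605240 (AS), both agents at these concentrations (Ibr+AS) or DMSO, for 24, 48 or 72 h. Each of these 12 groups had 3 libraries, numbered as replicates 1, 2 and 3 by cell passage (p121, p126 and p128). Both agents were dissolved in DMSO, so every group carried the solvent. The control medium held as much DMSO as the combination. Whether the media with a single agent were brought to the same amount is not stated. Comparisons of a single agent with DMSO may therefore also differ in the amount of solvent. Cells without DMSO were not analysed here, and time in culture and time with DMSO cannot be told apart. All libraries come from 1 cell line. The p-values rest on the spread between libraries that remains once group and passage are fitted, and not on a spread between cell lines or animals. Ibr 72 h replicate 3 was discarded by the study as an outlier and was left out of all fits and group means, which leaves 2 libraries in that group. For DMSO 24 h replicate 3 the labels disagree, with p126 in the title but p128 as the stated passage, and the latter was used. Depth ranged from 9941919 to 14703839 reads on genes, and 0 of 36 pairs of libraries of the same group were identical. Gene symbols could be paired with the identifiers of 1068 genes. None of the 10 B-cell markers was among them (0 of 10), so the labelled cell type was not checked. Symbols were available for 15 members, PSAT1, ACAT2, EGR1, TRIB1, HIVEP2, NAB2, PODXL, NEMP1, TNF, PTCH1, UST, IER3, P4HA2, TTC39B and MYO1A. The other 192 members are described by counts and medians, and the 15 genes were set by the pairs at hand, not drawn as a sample of all members.

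Ibrutinib inhibits Bruton's tyrosine kinase, which relays the signal of the B-cell receptor, and AS-605240 inhibits the gamma form of phosphoinositide 3-kinase. Signalling through the B-cell receptor induces immediate early genes such as EGR1 by way of the MAP kinases, and NF-kB targets such as TNF and IER3. Genes of sterol synthesis, of serine synthesis and of the response to low oxygen are known to be induced when sterols, amino acids or oxygen run short. In a bulk library, fewer cells of a type and less RNA per cell cannot be told apart.

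Over the members, the median log2 ratio of DMSO 72 h to DMSO 24 h was 1.43, with an interquartile range from 1.21 to 1.80 and a largest value of 5.40. The ratio of Ibr+AS 72 h to DMSO 72 h had a median of -1.67 and an interquartile range from -2.21 to -1.32. The corresponding medians over the 10037 genes were -0.04 and -0.04. Both ratios kept their sign in each of the 3 passages for 207 of 207 members, and each was past 1 in size in every passage for 163 members. The calls of edgeR's quasi-likelihood fit in these same contrasts were set in advance by the rule. They describe the choice and test nothing. edgeR called 206 members higher in DMSO at 72 h than at 24 h, where 4.43% of the 18670 genes tested were called higher. It called 206 members lower with Ibr+AS at 72 h, where 4.3% of all genes were called lower. A call here is a Benjamini-Hochberg adjusted p of 0.05 or less together with a log2 fold change (FC) beyond 1 in size. Nothing is read from these calls or from their distance to the shares of all genes, since the same contrasts chose the genes.

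**Figure D1:**
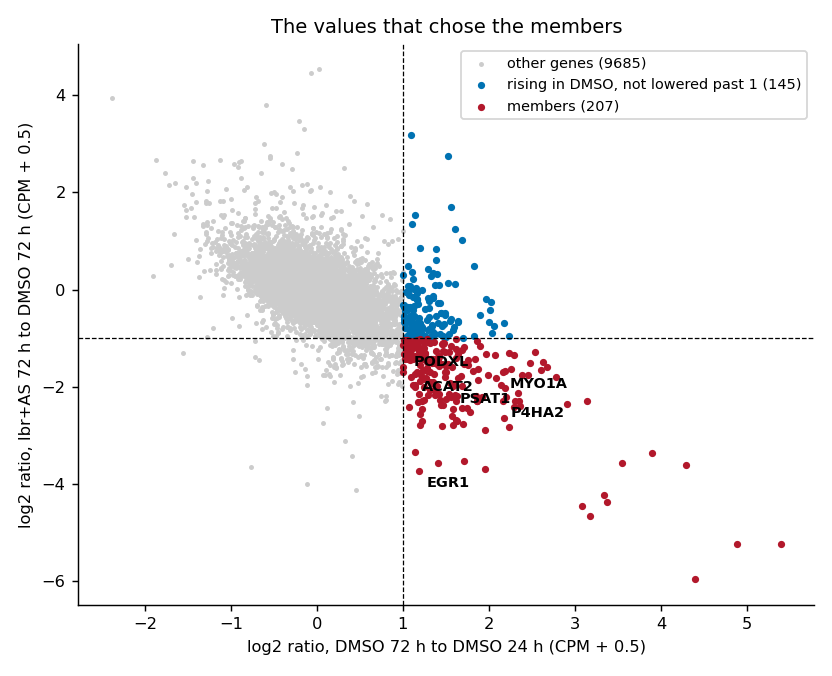
Log2 ratio of DMSO 72 h to DMSO 24 h (x axis) against the log2 ratio of Ibr+AS 72 h to DMSO 72 h (y axis) for 10037 genes, with 0.5 CPM added to each group mean. The 207 members (red) lie right of 1 and below -1 by the rule, the 145 other rising genes (blue) above -1, and both axes contain DMSO 72 h.

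The rule was also applied to each pair of passages, and the genes so chosen were read in the passage left out. These lists are not the members, which were chosen with every passage. Without p121, p126 or p128, in that order, 192, 198 and 187 of the genes chosen were members. In the passage left out, both ratios share the DMSO 72 h library, with opposite sign. The share of all genes passing both limits there was not computed, so nothing particular to the members is read from these values. The genes chosen without p121 numbered 206, and 169 of them (82.0%) passed both limits in p121. Without p126, 230 genes were chosen and 164 (71.3%) passed in p126. Without p128, 208 genes were chosen and 163 (78.4%) passed in p128. The median ratio of DMSO 72 h to 24 h in the passage left out was 1.43, 1.40 and 1.47, and that of Ibr+AS to DMSO at 72 h was -1.72, -1.59 and -1.73. In p121 and p128 the DMSO 24 h and 72 h libraries stand in the same set of sample-sheet numbers of the table's header, and in p126 they stand in different sets.

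Member RNA made up a growing share of the DMSO libraries and a flat share of the Ibr+AS libraries. In DMSO, 1.22% ± 0.036 of the reads (SD, n = 3) fell on the members at 24 h, 2.27% ± 0.28 at 48 h and 3.56% ± 0.033 at 72 h. With Ibr+AS the shares were 1.07% ± 0.016, 1.11% ± 0.11 and 1.09% ± 0.053. The 3 Ibr+AS groups overlapped each other, and the 3 DMSO groups did not. With Ibr the shares were 0.963% ± 0.0015 at 24 h, 1.18% ± 0.052 at 48 h and 1.86% ± 0.22 at 72 h, the last with n = 2. With AS they were 1.05% ± 0.016, 1.27% ± 0.092 and 2.17% ± 0.13. At 72 h the libraries with a single agent lay between those of Ibr+AS and those of DMSO. The Ibr 72 h library that was left out had a higher member share than the other 2 of its group, and its median log2 ratio to Ibr 24 h of the same passage was 1.01, against 0.59 and 0.42 in p121 and p126.

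**Figure D2:**
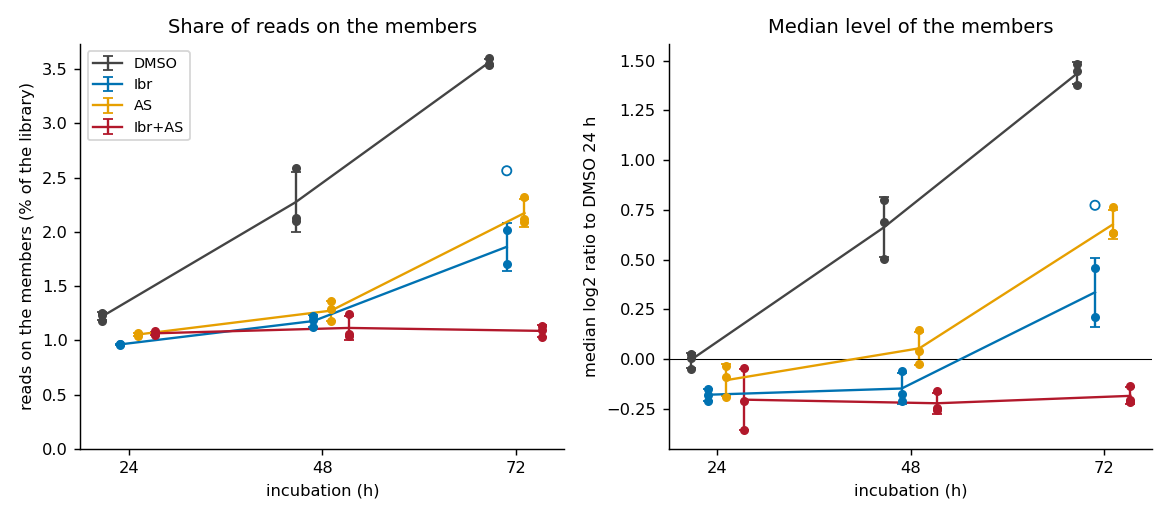
Share of reads on the 207 members in percent of a library (left) and median log2 ratio of the members to the DMSO 24 h mean (right) against incubation time in h, with points for libraries, lines for group means and bars for the SD, offset sideways by treatment; the open circle is the Ibr 72 h library left out of the mean. The DMSO means climb from 1.22% to 3.56%, while the Ibr+AS means stay between 1.07% and 1.11%.

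The members differed in when the DMSO level went up. By 48 h the median member had covered 30.8% of its CPM difference between DMSO 24 h and 72 h, with an interquartile range from 19.2% to 44.1%. For 43 members, called early here, at least 50% of the difference was present at 48 h, and for 78, called late, under 25%. Among the 15 members with a symbol, P4HA2 had covered 89.9% and ACAT2 105% at 48 h, while TTC39B had covered 4.46%, PSAT1 5.36% and PODXL 8.45%.

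Ibr+AS cells at 72 h were near the level of DMSO cells at 24 h for most members, as for most of the 10037 genes. The log2 ratio had an interquartile range from -0.59 to 0.15 over the members and from -0.33 to 0.17 over the 10037 genes. Of the latter, 143 were at -1 or below. For 122 of 207 the Ibr+AS 72 h mean was within 0.5 log2 units of the DMSO 24 h mean, for 22 it was more than 0.5 above, and for 63 it was more than 0.5 below, of which 22 were below by 1 or more. Within Ibr+AS cells the median log2 ratio of 72 h to 24 h was -0.04, with 99 members above 0 and 108 below, beside a median of 0.08 over the 10037 genes, with 6288 above 0 and 3749 below. At 24 h the median ratio of Ibr+AS to DMSO was -0.15, near the -0.17 of all 10037 genes. It was 1 or above for 13 members and for 398 of all genes, and -1 or below for 34 members and for 373 of all genes.

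At 48 h the members were lower with each treatment than in DMSO. The 48 h libraries entered neither ratio of the rule, and 207 of 207 members also reached 2 CPM over the other libraries. With the DMSO 48 h libraries alone left out, 3 members missed 2 CPM. Ibr+AS lowered 86 members and raised 1, where 2.82% of all genes were called lower and 4.86% higher. The median log2 FC of the members was -0.75, 180 of 207 values were below 0, and the median over all genes at 2 CPM or more was -0.04. LYZ, the lysozyme gene and the 1 marker of other cell types that could be paired with an identifier, was called higher in the same comparison (log2 FC 1.27 ± 0.12, adjusted p = 1.90e-10), and its part in the result was not tested. Ibr alone lowered 71 members, with a median log2 FC of -0.78 and 200 values below 0, where 1.11% of all genes were called lower. AS alone lowered 44 members, with a median of -0.65 and 195 values below 0, where 0.509% of all genes were called lower. These comparisons share the DMSO 48 h libraries, so their values stand side by side and are not independent of each other. In the fold changes of CPM means, before the TMM scaling of edgeR, the median over all genes for Ibr+AS was -0.16, and that of the members was -0.82. The ratio was below 0 in every passage for 167 members. Per passage, its median was -0.84 in p121, -0.71 in p126, where the 2 libraries stand in different header sets, and -0.91 in p128.

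Values of another kind were found for the other rising genes at 48 h. Of these 145 genes, Ibr+AS raised 49 and lowered 0, with a median log2 FC of 0.63 and with 4.86% of all genes called higher. Their medians for Ibr and AS against DMSO at 48 h were 0.06 and -0.04. The difference between the members and the other rising genes was not tested.

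**Figure D3:**
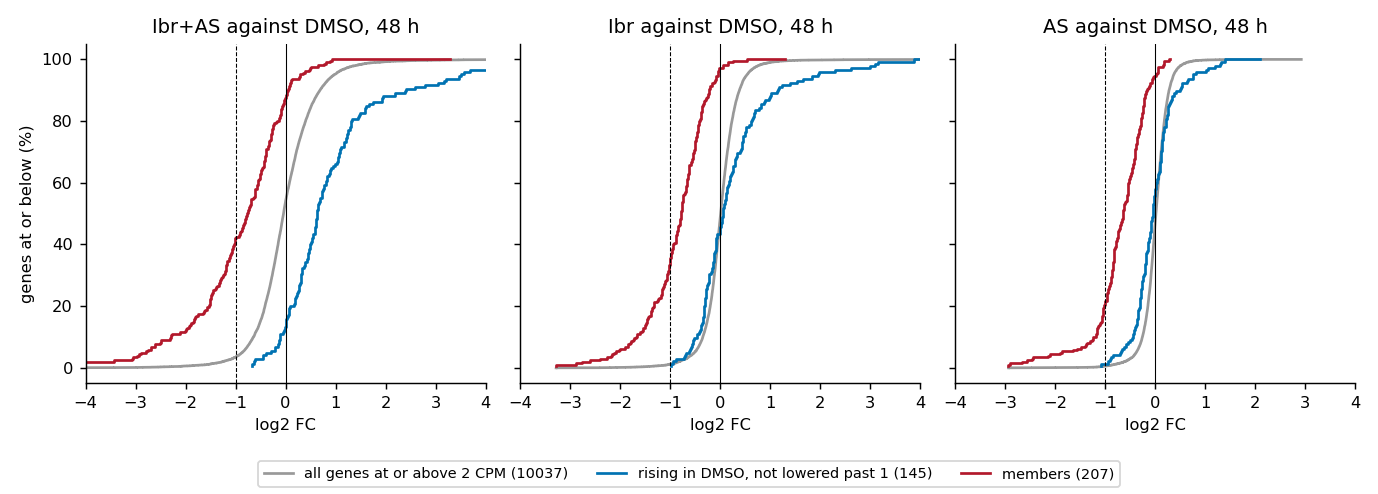
Cumulative share of genes in percent against the log2 FC to DMSO at 48 h for Ibr+AS, Ibr and AS, for the 207 members (red), the 145 other rising genes (blue) and 10037 genes at 2 CPM or more (grey); the axis ends at -4 and 4, and the dashed line marks -1. The member curves lie left of the grey curve in each panel, with medians of -0.75, -0.78 and -0.65.

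At 48 h the combination and the single agents left the members at similar medians. Against Ibr, Ibr+AS lowered 7 members and raised 9, with a median log2 FC of -0.05, where 0.696% of all genes were called lower and 2.08% higher. The count of 7 was 11 without replicate 1 and 13 without replicate 3. Against AS, it lowered 30 and raised 10, with a median of -0.19, where 1.61% were called lower and 3.75% higher. For a sum of the single effects on the log2 scale, Ibr+AS would equal Ibr plus AS minus DMSO. edgeR called 0 members below that sum, where 0.745% of all genes were, and 43 above it, where 1.53% were. At the adjusted p alone in edgeR, without the limit on the log2 FC, 2 members were below the sum, beside 1418 of the 18670 genes tested. DESeq2 called 0 members below it. Without replicate 1, 2 members were called below the sum, and without replicate 3, 1 member. The median departure of the members was 0.58. The other rising genes were much alike, with 31 of 145 (21.4%) called above the sum, beside 20.8% of the members, 0 below and a median departure of 0.64. Of the 43 members above the sum, 36 had a log2 FC below 0 for Ibr+AS against DMSO, and 11 were called lower in that comparison. For these the combination was lower than DMSO by less than the single effects added.

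At 72 h the medians of the single agents and the combination stood further apart, but DMSO 72 h and Ibr+AS 72 h both chose the genes. The rule set a limit on Ibr+AS and none on Ibr or AS, so the wider gap is in part built into the choice and is given as a description. The median log2 ratio to DMSO 72 h was -1.15 for Ibr and -0.81 for AS, beside -1.67 for Ibr+AS. Both single agents reached -1 for 66 members, Ibr alone for 58, AS alone for 5, and neither for 78. Counted by agent, Ibr reached -1 for 124 members, 33 of the 145 other rising genes and 229 of the 10037 genes. For AS these counts were 71, 20 and 105. The 78 members in the last class are those for which the limit of the rule was met with the combination and with neither agent by itself.

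The rise with time could be tested within cells given a single agent, since those libraries entered neither ratio of the rule. Without the libraries compared, 206 members reached 2 CPM for the AS test and 207 for the Ibr test. In AS cells 68 members were higher at 72 h than at 24 h, where 0.948% of all genes were, and the median log2 FC of the members was 0.77. In Ibr cells 52 members were higher, where 0.589% of all genes were, with a median of 0.58. Of the 145 other rising genes, 14 (9.66%) were higher in AS cells and 6 (4.14%) in Ibr cells. The lists in AS and in Ibr cells had 44 members in common, which is 64.7% of the first and 84.6% of the second. On neither list were 131 members, and the overlap of the 2 lists over all genes was not computed. No library was used in both comparisons.

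Early and late members are set side by side for these tests. Of the 43 early members, 30 (69.8%) were higher at 72 h than at 24 h in AS cells and 33 (76.7%) in Ibr cells, with median log2 FCs of 1.17 and 1.22. Of the 78 late members, 10 (12.8%) were higher in AS cells and 7 (8.97%) in Ibr cells, with medians of 0.51 and 0.19. The split used DMSO libraries only. Relative to DMSO 72 h, which the split did use, 2 early members reached -1 with Ibr and 2 with AS, against 71 and 48 of the late members. Against AS at 48 h, the median log2 FC of Ibr+AS was -0.61 for the early and -0.03 for the late members. The difference between early and late members was not tested, because genes are not replicates of a condition.

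**Figure D4:**
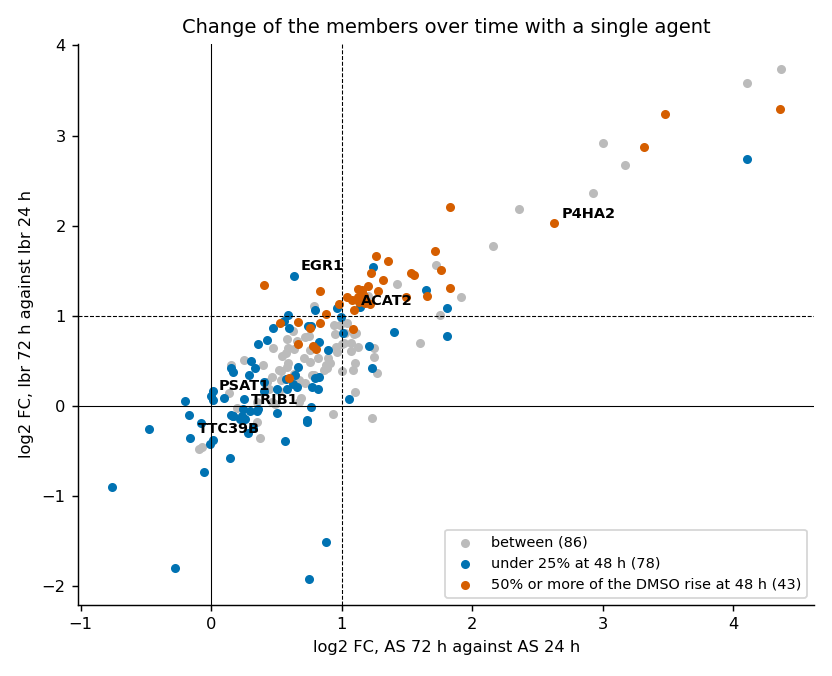
Log2 FC from 24 h to 72 h in AS cells (x axis) against that in Ibr cells (y axis) for the 207 members, coloured by how much of the DMSO rise was present at 48 h; dashed lines mark 1. Most early members (orange) lie near or above 1 on both axes, with medians of 1.17 and 1.22, and most late members (blue) lie nearer 0.

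At 24 h the combination and each single agent left the members at similar medians, with calls in both directions. Against Ibr, Ibr+AS lowered 7 members and raised 13, where 0.648% of all genes were called lower and 2.23% higher, and the median log2 FC was 0.05. Against AS it lowered 17 and raised 12, where 1.1% were called lower and 3.66% higher, with a median of 0.00. The members lowered at 24 h were largely ones that Ibr+AS lowered against DMSO at 48 h, in other libraries. Of all members 41.5% were lowered in that comparison, and the same overlap over all genes was not computed, so nothing particular to the members is read from it. This held for 7 of 7 and for 16 of 17 (94.1%), which are 8.14% and 18.6% of the 86 lowered at 48 h. Of the members raised at 24 h, 0 of 13 and 1 of 12 were among the 86.

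PSAT1 makes phosphoserine on the route to serine and is a known target of ATF4, the factor of the amino acid stress response. Its level in DMSO was 215, 224 and 214 CPM at 24 h, 248, 245 and 231 CPM at 48 h and 592, 660 and 705 CPM at 72 h, in replicates 1, 2 and 3. With Ibr+AS it was 112, 161 and 130 CPM at 24 h, 150, 139 and 122 CPM at 48 h and 176, 163 and 152 CPM at 72 h. The DMSO libraries of 72 h lay above all others, and each agent alone also kept PSAT1 low at 72 h, at 183 and 189 CPM with Ibr and at 158, 177 and 172 CPM with AS. From 24 h to 72 h its log2 FC was 0.00 ± 0.09 (SE) in AS cells and 0.11 ± 0.10 in Ibr cells. At 48 h Ibr+AS was lower than DMSO by a log2 FC of -0.69 ± 0.09 (adjusted p = 2.32e-10), short of the limit of 1.

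ACAT2, the cytosolic thiolase that opens the mevalonate route to cholesterol, followed another course. In DMSO it was at 265, 221 and 231 CPM at 24 h, at 502, 537 and 588 CPM at 48 h and at 503, 550 and 526 CPM at 72 h, so that its 48 h and 72 h libraries overlapped. With Ibr+AS it was at 111, 108 and 109 CPM, then at 139, 134 and 127 CPM, then at 181, 137 and 153 CPM. Ibr+AS was below DMSO at every time with no overlap. At 48 h ACAT2 fell with Ibr+AS (log2 FC -1.90 ± 0.10, adjusted p = 9.08e-36), with Ibr (-1.46 ± 0.09, adjusted p = 3.76e-26) and with AS (-1.14 ± 0.09, adjusted p = 5.54e-19). It rose from 24 h to 72 h in AS cells (1.09 ± 0.09, adjusted p = 3.77e-18) and in Ibr cells (1.06 ± 0.10, adjusted p = 6.28e-15), the latter without passing the limit of 1 when replicate 1 was left out (0.86). ACAT2 overlaps TCP1, a subunit of the cytosolic chaperonin, in the RefSeq annotation, and reads of the overlap cannot be told apart since the strand column of the counts is not stated. TCP1 itself was at 501 CPM in DMSO 24 h and 336 CPM in DMSO 72 h, a difference in the other direction.

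P4HA2, a catalytic subunit of the collagen prolyl hydroxylase and a known target of the hypoxia-inducible factors, was an early member. Its CPM in DMSO were 2.94, 1.77 and 1.83 at 24 h, 10.3, 8.74 and 12.7 at 48 h and 12.6, 13.1 and 8.92 at 72 h. With Ibr+AS they were 2.14, 1.27 and 2.55 at 24 h, 2.33, 1.81 and 1.83 at 48 h and 1.73, 2.41 and 1.75 at 72 h, so P4HA2 stayed near its DMSO 24 h level throughout. At 48 h it fell with Ibr+AS (log2 FC -2.29 ± 0.22, adjusted p = 5.79e-14), with Ibr (-1.80 ± 0.21, adjusted p = 3.44e-10) and with AS (-1.17 ± 0.19, adjusted p = 9.07e-06). Ibr+AS was also lower than AS alone at 48 h (-1.11 ± 0.25, adjusted p = 2.32e-04), a call that was lost without replicate 3 (-0.78). With a single agent P4HA2 reached DMSO levels by 72 h, at 11.1 and 9.48 CPM with Ibr and at 19.2, 12.6 and 10.2 CPM with AS. The rise from 24 h was 2.63 ± 0.21 in AS cells (adjusted p = 1.47e-16) and 2.03 ± 0.24 in Ibr cells (adjusted p = 6.02e-10). UST, a sulfotransferase that modifies chondroitin and dermatan sulfate chains, went from 6.48, 6.19 and 7.06 CPM to 23.4, 20.9 and 20.2 CPM in DMSO from 24 h to 72 h and was at 6.28, 9.76 and 9.03 CPM with Ibr+AS at 72 h. At 48 h it was above the sum of the single effects (1.00 ± 0.22, adjusted p = 5.14e-04), which was not called when replicate 3 was left out (0.94).

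EGR1, a zinc finger factor of the immediate early response, had the lowest log2 FC of the named members with Ibr+AS at 48 h. In DMSO it stood at 141, 114 and 112 CPM at 24 h, at 297, 85.7 and 90.6 CPM at 48 h and at 285, 239 and 315 CPM at 72 h. With Ibr+AS it was at 36.4, 10.7 and 12.3 CPM, then at 57.1, 4.34 and 11 CPM, then at 41.7, 8.05 and 12.1 CPM. Replicate 1 was the highest of each of these groups but DMSO 72 h, and Ibr+AS was below DMSO at every time without overlap. Ibr alone gave 45.3, 16 and 12.1 CPM at 24 h, and AS alone 133, 99.3 and 127 CPM. At 48 h EGR1 fell with Ibr+AS (log2 FC -2.69 ± 0.56, adjusted p = 5.45e-04) and with Ibr (-1.69 ± 0.53, adjusted p = 0.0424), while AS gave -0.21 ± 0.50 (adjusted p = 0.976). The call for Ibr+AS was lost when the fit held these groups only, and that for Ibr was lost without replicate 2 and without the passage term. Ibr+AS was lower than AS alone at 24 h (-2.70 ± 0.56, adjusted p = 8.08e-04) and at 48 h (-2.48 ± 0.56, adjusted p = 0.00145), the latter lost without replicate 2 and in the fit of these groups only. Against Ibr alone the log2 FC was -0.22 ± 0.59 at 24 h and -1.0 ± 0.56 at 48 h, with adjusted p of 0.912 and 0.265. At 48 h this difference was called without replicate 1 (-1.28, adjusted p = 4.29e-14) and without replicate 3 (-1.11, adjusted p = 2.04e-11), and without replicate 1 EGR1 was called below the sum of the single effects (-1.38).

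NAB2, a corepressor that binds EGR1 and is itself induced by it, was at 15.5, 15.6 and 20.3 CPM in DMSO at 24 h, at 25.6, 23 and 27.3 CPM at 48 h and at 38.4, 44.3 and 47.0 CPM at 72 h. Ibr alone kept it at 8.52, 8.26 and 9.46 CPM, then 7.79, 9.40 and 8.91 CPM, then 12.5 and 9.68 CPM, and Ibr+AS at 10.3, 11.5 and 12.3 CPM, then 8.73, 9.95 and 10.4 CPM, then 11.9, 9.76 and 8.41 CPM. The Ibr and Ibr+AS libraries lay below the DMSO libraries at each time. At 48 h NAB2 fell with Ibr+AS (log2 FC -1.26 ± 0.13, adjusted p = 4.74e-14) and with Ibr (-1.47 ± 0.14, adjusted p = 3.52e-16), and with AS it was at -0.63 ± 0.13 (adjusted p = 2.69e-04), short of the limit. In AS cells its change from 24 h to 72 h was 1.00 ± 0.13, just under the limit of 1. NEMP1, an inner nuclear membrane protein, is the next coding gene to NAB2 in RefSeq and is a member as well. It was at 20.02, 19.1 and 16.7 CPM in DMSO 24 h, 47.2, 30.8 and 41.4 CPM in DMSO 72 h and 15.2, 17.5 and 10.5 CPM in Ibr+AS 72 h, with a log2 FC of -0.61 ± 0.22 for Ibr+AS at 48 h (adjusted p = 0.0369). STAT6, which follows NAB2 on the other side, was at 323 CPM in DMSO 24 h and 259 CPM in DMSO 72 h and is not a member.

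**Figure D5:**
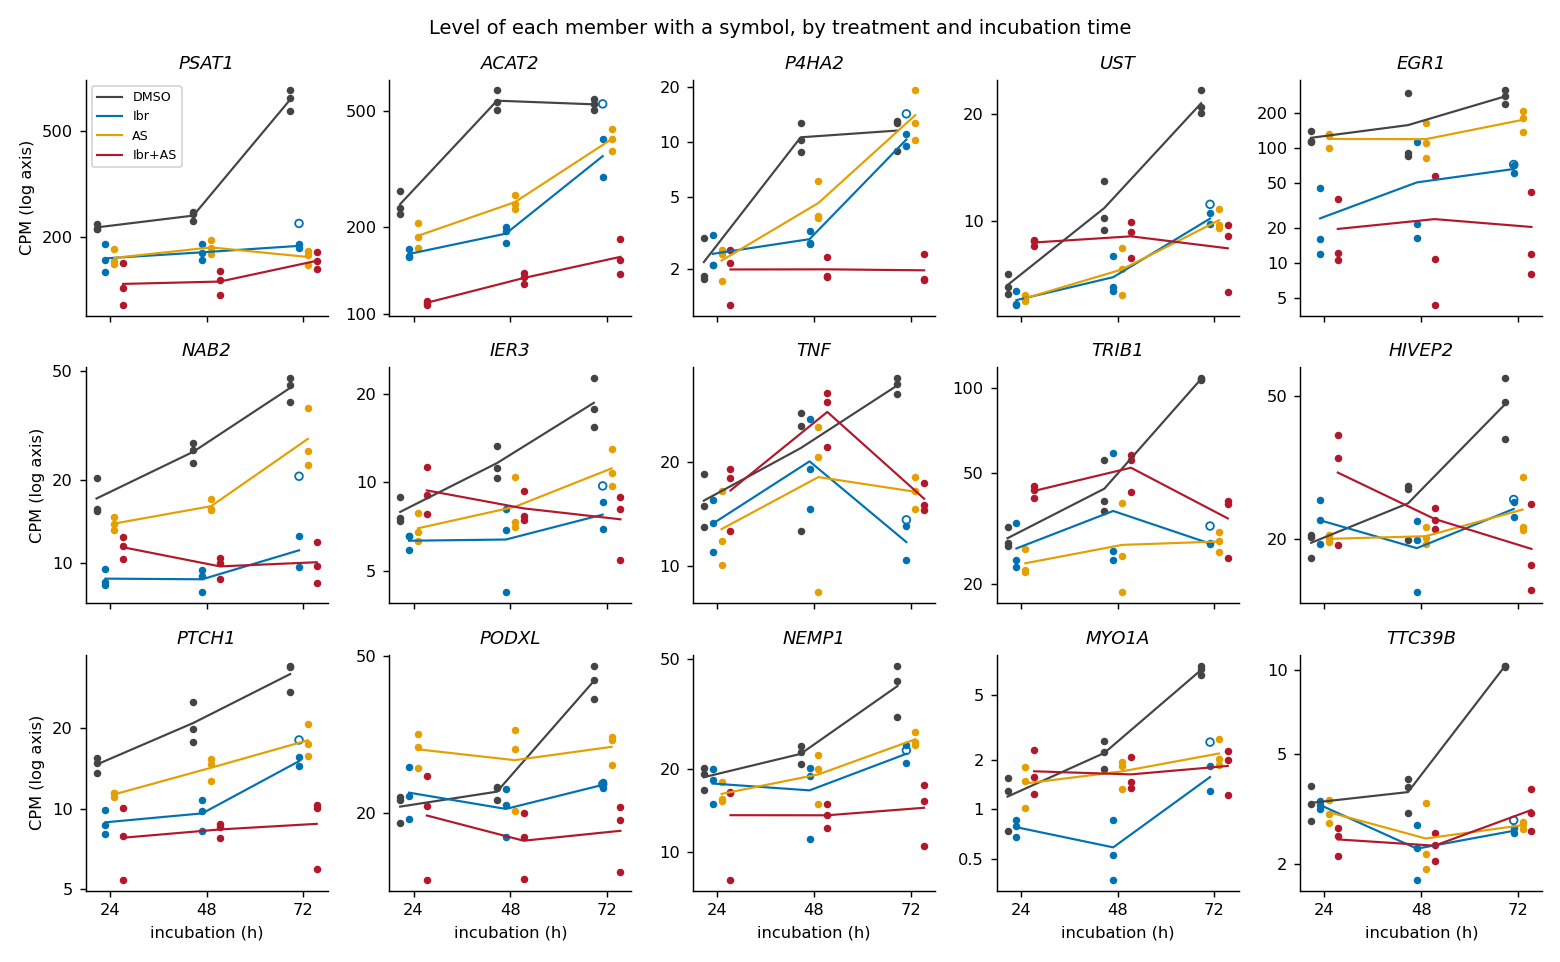
CPM on a log axis against incubation time in h for the 15 members with a symbol, with points for libraries, lines for group means, colours for treatments and an open circle for the Ibr 72 h library left out of the mean; points are offset sideways by treatment. PSAT1, TTC39B and TRIB1 stay low at 72 h with each single agent, whereas ACAT2 and P4HA2 approach DMSO levels with a single agent and stay low with Ibr+AS.

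TNF, a cytokine gene and NF-kB target, showed no call in any of the 10 tests with all replicates. Without replicate 3 it was called higher with Ibr+AS than with AS at 48 h (log2 FC 1.05, adjusted p = 1.81e-08), where all replicates gave 0.76 (adjusted p = 0.0507). Its DMSO libraries read 13, 15 and 18.4 CPM at 24 h, 12.6, 27.7 and 25.4 CPM at 48 h and 34.9, 33.5 and 31.4 CPM at 72 h. Its Ibr+AS libraries read 17.9, 12.7 and 19.1 CPM, then 29.8, 31.7 and 22.1 CPM, then 15, 14.6 and 17.4 CPM. The lower level with Ibr+AS was thus seen at 72 h and not at 48 h, where the log2 FC to DMSO was 0.50 ± 0.28 (adjusted p = 0.214). A RefSeq gene known only by a locus number overlaps TNF, and another overlaps PTCH1. IER3, a stress- and NF-kB-induced gene, was at 7.36, 7.55 and 8.89 CPM in DMSO 24 h, at 15.5, 17.8 and 22.7 CPM in DMSO 72 h and at 8.09, 5.43 and 8.94 CPM in Ibr+AS 72 h. Its log2 FC at 48 h was -0.39 ± 0.20 with Ibr+AS (adjusted p = 0.146) and -0.80 ± 0.21 with Ibr (adjusted p = 0.00803).

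TRIB1, a pseudokinase that acts as a scaffold for the ubiquitin ligase COP1, was among the members that Ibr+AS raised above a single agent before 72 h. With Ibr+AS it was at 44.9, 43.6 and 40.8 CPM at 24 h, above DMSO at 32.1, 28.1 and 27.5 CPM without overlap. At 48 h it was at 55.8, 58.0 and 42.7 CPM with Ibr+AS, at 55.6, 36.4 and 39.7 CPM in DMSO and at 39.0, 25.3 and 18.7 CPM with AS. At 72 h DMSO was at 109, 108 and 107 CPM and Ibr+AS at 24.9, 39.5 and 38.7 CPM, with Ibr at 27.9 and 28 CPM and AS at 30.8, 28.5 and 26.1 CPM. Ibr+AS was higher than AS at 48 h (log2 FC 1.04 ± 0.23, adjusted p = 0.00145; 0.88 without replicate 2 and 0.97 without replicate 3, neither of them called). It was above the sum of the single effects by 1.27 ± 0.33 (adjusted p = 0.0109), which was not called without replicate 2 (1.06). HIVEP2, a large zinc finger protein that binds kB-like sites, had its highest Ibr+AS mean at 24 h, at 19.2, 38.9 and 33.5 CPM, and read 14.4, 24.9 and 16.8 CPM at 72 h, where DMSO read 56.0, 37.9 and 47.9 CPM.

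PTCH1, the Hedgehog receptor and itself a target of that pathway, was at 14.9, 13.5 and 15.4 CPM in DMSO 24 h, at 25.1, 17.7 and 19.9 CPM in DMSO 48 h and at 33.9, 27.3 and 34.3 CPM in DMSO 72 h. Ibr+AS held it at 5.40, 7.91 and 10.03 CPM, then 8.56, 7.78 and 8.73 CPM, then 10.3, 10.1 and 5.96 CPM, below DMSO at each time. At 48 h it fell with Ibr+AS (log2 FC -1.19 ± 0.15, adjusted p = 8.52e-11) and with Ibr (-1.06 ± 0.15, adjusted p = 1.93e-08), and with AS it was at -0.53 ± 0.14 (adjusted p = 0.013). PODXL, a sialomucin of the cell surface, was at 18.8, 22 and 21.5 CPM in DMSO 24 h, at 47.3, 38.8 and 43.5 CPM in DMSO 72 h and at 19.2, 20.7 and 14.2 CPM in Ibr+AS 72 h. It is the named member closest to the limit for the DMSO ratio and had no call in the 10 tests.

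TTC39B, a tetratricopeptide repeat protein, was high in DMSO at 72 h only. The DMSO 72 h libraries read 10.4, 10.2 and 10.3 CPM, and its libraries of the other 11 groups all read 4.05 CPM or less. MYO1A, an unconventional class I myosin known from the intestinal brush border, had a mean close to the 2 CPM limit, at 2.25 CPM when all 48 h libraries were left out and 1.99 CPM, short of the limit, when the DMSO 48 h libraries alone were. It was at 0.736, 1.29 and 1.56 CPM in DMSO 24 h, 1.77, 2.22 and 2.62 CPM in DMSO 48 h and 7.13, 6.57 and 7.51 CPM in DMSO 72 h. At 48 h it fell with Ibr to 0.371, 0.527 and 0.862 CPM (log2 FC -1.84 ± 0.36, adjusted p = 6.29e-05), whereas Ibr+AS read 1.47, 2.08 and 1.35 CPM. Ibr+AS was higher than Ibr at 24 h (1.18 ± 0.35, adjusted p = 0.00796) and at 48 h (1.53 ± 0.39, adjusted p = 0.00141), and above the sum of the single effects at 48 h (1.87 ± 0.48, adjusted p = 0.00294). The first of these calls was lost without replicate 1 (0.80) and the other two without replicate 2 (adjusted p = 0.0600 and 0.0513).

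Of the 15 named members, 5 fell with Ibr+AS at 48 h (ACAT2, EGR1, NAB2, PTCH1 and P4HA2), 6 with Ibr (these and MYO1A) and 2 with AS (ACAT2 and P4HA2). The members thus included genes without a call at 48 h, such as TTC39B, TNF and PODXL. ACAT2 and P4HA2 were the 2 called higher at 72 h than at 24 h in AS cells, and the same 2 in Ibr cells.

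The pathways around these genes could be followed only as far as symbols were paired. Of 22 genes of cholesterol synthesis 2 were paired, ACAT2 and SQLE, the squalene epoxidase. SQLE was at 730 CPM in DMSO 24 h, 1078 CPM in DMSO 72 h and 372 CPM in Ibr+AS 72 h, missed the DMSO limit with a log2 FC of 0.58, and fell with Ibr+AS at 48 h (-1.72 ± 0.10, adjusted p = 2.41e-28). Of 16 genes of the amino acid stress response 2 were paired, PSAT1 and SHMT2, the mitochondrial serine hydroxymethyltransferase, which was at 327, 482 and 290 CPM in the same 3 groups. Of 20 genes of the hypoxia response, P4HA2 and NDRG1 were paired, and NDRG1 had a mean of 0.0738 CPM. Of 26 genes induced by the B-cell receptor or NF-kB, EGR1 and IER3 are members, and NFATC1 and TNFAIP3 are not. These 2 had DMSO log2 FCs of 0.55 and 0.39 from 24 h to 72 h. None of the 3 paired interferon genes, 5 antigen presentation genes, 2 FOXO target genes, 1 cell cycle gene and 1 p53 target is a member, and 0 of 17 glycolysis genes could be paired. Of the markers of other cells, LYZ was the 1 paired of 6 myeloid markers, and 0 of 8 T-cell and 0 of 5 plasma cell markers were paired. LYZ was at 87.1 CPM in DMSO 24 h, 100 CPM in DMSO 72 h and 155 CPM in Ibr+AS 72 h.

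Among members without a symbol, 4 were singled out after their values were seen. ENSCAFG00000032469 had the largest DMSO ratio. Its DMSO means were 5.09, 50.7 and 235 CPM at 24, 48 and 72 h, and its Ibr+AS means 8.72, 6.14 and 5.75 CPM. At 48 h Ibr, AS and Ibr+AS lowered it by nearly the same amount, with log2 FCs of -2.88 ± 0.34, -2.90 ± 0.33 and -2.89 ± 0.34. ENSCAFG00000014490 had the lowest log2 FC for Ibr+AS at 48 h, -6.09 ± 0.40 (adjusted p = 1.88e-11), with a mean of 36.7 CPM in DMSO, 6.62 with Ibr, 5.66 with AS and 0.478 with Ibr+AS, the last from 4 to 8 reads a library. ENSCAFG00000011762 came next, with -5.21 ± 0.36 (adjusted p = 9.58e-12) and means of 21, 3.30, 5.53 and 0.507 CPM. ENSCAFG00000024295 was the 1 member that Ibr+AS raised at 48 h (3.30 ± 0.42, adjusted p = 7.89e-07). It was at 0.676 CPM in DMSO and 8.42 CPM in Ibr+AS at 24 h, at 0.819 and 7.25 CPM at 48 h and at 6.78 and 2.10 CPM at 72 h, so the order of both groups changed between 48 h and 72 h.

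The limits of the rule cut through continuous values. By mean level, MYO1A (2.01 CPM) and TTC39B (3.50 CPM) were the named genes just inside and IL23A (1.95 CPM) and ALDH8A1 (1.92 CPM) those just outside. By the DMSO ratio, PODXL (1.04) and NEMP1 (1.08) were inside and CDKN2B (0.92) and MYB (0.91) outside. By the ratio of Ibr+AS to DMSO at 72 h, TNF (-1.06) and PODXL (-1.24) were inside and ZHX2 (-0.95) and PLXNB2 (-0.74) outside. With 2 CPM added in place of 0.5 the rule chose 175 genes, all of them among the 207, and with TMM-scaled CPM it chose 212, of which 203 were members.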

How the data were processed

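RNA of CLBL-1 cells was sequenced by the authors as single-end reads of polyadenylated RNA. The authors mapped the reads to CanFam3.1 with STAR (version 2.7.5a) and deposited 1 table of raw counts per Ensembl gene, in whole reads. The strand column that was kept is not given in the sources used here. Members were found with CPM from column sums. The members and the gene lists were chosen with earlier results of these data known.

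Counts were tested in R 4.3.3 with edgeR 4.0.16: genes with at least 2 reads over 35 libraries (18670), TMM factors, robust quasi-likelihood fits with passage and group as terms, and Benjamini-Hochberg adjustment over all genes tested. DESeq2 1.42.0 was an alternative. The procedure was tested on simulated data. Passage was kept as a term as in the study, since same-numbered libraries are the same passage of cells. Once each group's mean was subtracted, the median r was 0.104 between libraries of 1 passage (187 pairs) and -0.0490 between the rest (374 pairs). Chi-square per degree of freedom between libraries of a group was 1.87 to 26.9 over 36 pairs, above the value sampling of reads gives.

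Named genes are all members that could be paired with a symbol through the given parts of the study's supplementary tables, and the genes nearest to each limit. RefSeq (UU_Cfam_GSD_1.0) gave neighbouring genes for 14 of 15, and no coordinates, since its build differs from that of the counts. Promoter letters and sequences were not analysed here. Alternatives were other scaling, filters, tools, limits and libraries, each replicate left out in turn, and, chosen after seeing the data, the header set of a library as a further term, which is inferred from sample-sheet numbers that restart once in the header. The study's sample sheet places the 72 h harvest of p128 apart from its 48 h harvest, so those libraries were also left out.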

Additional observations from a re-analysis of the deposited data

How the results depend on the processing

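Of 152 alternative values, 26 moved by over 1.5 times from the reported count and the others did not. With the replicate block (passage) left out, Ibr+AS lowered 84 members at 48 h in place of 86, no count moved by over 1.5 times, and EGR1 with Ibr at 48 h lost its call. With the header set as a further term, added after seeing the data, that count was 82. With the 2 CPM limit applied without the compared libraries, also added then, it was 88, and the other 9 test counts stayed within 1.5 times. Without the 72 h libraries of replicate 3 it was 87, and with DESeq2 82.

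The limits of the rule and of a call moved the counts most. Limits of 0.5 and 1.5 on both ratios chose 744 and 72 genes. A test for a log2 FC beyond 1 (glmTreat) left 45, 22 and 7 members lower with Ibr+AS, Ibr and AS at 48 h, 1 and 8 lower with Ibr+AS than with Ibr and AS at 48 h, 25 and 16 higher with time in AS and Ibr cells, and 0 and 0 lower at 24 h. The adjusted p alone gave 141, 151 and 118, then 44 and 76, then 140 and 93, then 28 and 47, and 2 members below the sum of the single effects. A fit of the 48 h groups only gave 1 below the sum.

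With each replicate left out in turn, the rule chose 206 to 230 genes. The 48 h counts against DMSO ranged from 81 to 86 (Ibr+AS), 60 to 81 (Ibr) and 42 to 51 (AS). Those of Ibr+AS at 48 h ranged from 8 to 13 against Ibr (7 with all replicates) and from 25 to 31 against AS. Members below the sum numbered 0 to 2. The counts with time ranged from 67 to 73 in AS cells and from 44 to 59 in Ibr cells, and those at 24 h from 6 to 9 against Ibr and from 15 to 22 against AS. The cause of these moves was not tested. Depth limits MYO1A, which had 4 to 9 reads in an Ibr 48 h library, and the Ibr 72 h group rests on 2 libraries.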
